A study of Mus musculus with 39 samples.

Results

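The levels of mouse miRNAs were followed from day 1 to day 3 of treatment with Activin A plus Wnt3a, the growth factor combination that the study used to drive mouse embryonic stem cells (ESCs) towards definitive endoderm (DE). The 6 arrays with these labels were taken, 3 from day 1 and 3 from day 3, out of 39 in the series. The study holds 13 groups of 3 arrays, namely undifferentiated ESCs, and cells sampled at days 1, 3 and 5 under 4 treatments (Activin A plus Wnt3a, Activin A alone, Wnt3a alone, or no growth factor, called Control). Every culture was made from TCL-1, a single ESC line from a 129/SvJae background, so the values describe 1 line. The ESCs had been maintained with LIF on mouse embryonic fibroblast feeders treated with mitomycin C. Feeders were depleted by letting them attach to gelatin, and the remaining cells were plated on collagen. From the next day the cells received serum-free RPMI-1640 with B27 and, as the labels word it, sodium butyrate. Control cells had this medium alone. Activin A was added at 100 ng/ml and Wnt3a at 50 ng/ml, either singly or together. The labels do not say that the 3 replicates of a group were separate cultures, so the p-values measure the spread between these arrays, which may be technical. A miRNA array does not measure the protein-coding DE markers Sox17 and Foxa2, so the DE identity of the cells was not checked on them.

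MiRNAs are short RNAs that pair with target mRNAs mainly through their seed, bases 2 to 8 of the mature strand, and lower the output of those targets. Mouse ESCs are known for the miR-290-295 cluster, which speeds the passage from G1 to S phase, and the miR-302 cluster, which also encodes miR-367, takes over in the primed epiblast and shares much of its seed. Members of the let-7 family and miR-125 mark differentiated cells, and the protein Lin28 holds let-7 processing down in pluripotent cells. Activin A acts through the Nodal pathway, whose inhibitors Lefty1 and Lefty2 are known targets of miR-302, and Wnt3a acts through β-catenin.

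The sequences below are those around which the day 1 to day 3 comparison turned. They come from RefSeq on build GRCm38.p6, which gave a mature sequence for 139 of the 307 miRNAs tested (45.3%). The array used older names, and each was read as the matching arm. The capitals mark the seed. The first set holds members of the miR-302 and miR-290-295 clusters, of which miR-302b and miR-302d carry the same seed as miR-291a-3p, miR-294 and miR-295, while miR-302c is shifted by 1 base and miR-367 has another seed.
miR-302b: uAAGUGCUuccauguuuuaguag
miR-302d: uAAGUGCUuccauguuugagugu
miR-302c: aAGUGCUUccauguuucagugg
miR-367: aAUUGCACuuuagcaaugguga
miR-294: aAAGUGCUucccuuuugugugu
miR-295: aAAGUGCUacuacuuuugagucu
miR-291a-3p: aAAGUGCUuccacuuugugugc

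The second set holds strands that were lower at day 3. The let-7 strands share 1 seed and differ from each other at few bases, so probes for one could also bind another and their separate values are uncertain. The same holds for miR-302a to miR-302d. The miR-125a-5p strand is shown because it shares its seed with miR-125b-5p but did not follow it.
let-7f: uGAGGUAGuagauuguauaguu
let-7a: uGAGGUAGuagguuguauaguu
let-7e: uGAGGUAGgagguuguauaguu
let-7i: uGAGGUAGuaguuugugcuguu
miR-125b-5p: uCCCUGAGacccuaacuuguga
miR-125a-5p: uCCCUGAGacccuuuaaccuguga
miR-29a: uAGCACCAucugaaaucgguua
miR-199a-3p: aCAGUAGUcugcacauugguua

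The 6 arrays had a median local background of 35 to 36 and 0 saturated spots. Replicates within a day correlated across the 200 miRNAs detected on all 6 arrays at r = 0.990 to 0.997, and arrays of different days at 0.739 to 0.780. The array signal has no read depth, and 3 arrays per day limit the precision. The arrays of the different days lay on different slides and were scanned in different sessions. A slide term could not be estimated for this comparison, so slide and day cannot be told apart. In the authors' own value table, 18 of the 39 columns ranked the miRNAs exactly as the scanner output of another array did. On each day the columns of Activin A (9 in all) carried the ranks of the combined treatment, and its 9 columns those of Activin A. The labels of the scanner files were followed here. If the value table carries the right names, the values given below for Activin A alone are those of Activin A plus Wnt3a and the reverse. The changes in Activin A alone are given with the comparison of treatments.

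More miRNAs were detected at day 3 than at day 1. The scanner software detected 216, 221 and 240 of the 611 mouse miRNAs on the day 1 arrays (226 ± 12.7, SD, n = 3) and 280, 297 and 312 on the day 3 arrays (296 ± 16). The 3 day 3 arrays lay above all day 1 arrays, with a difference of 70.7 miRNAs (exact permutation test, two-sided, p = 0.1, the smallest p that 3 against 3 allows). The summed signal before any scaling was also higher, at 75771 to 88925 on day 1 and 94619 to 116656 on day 3.

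Levels were compared as log2 of the quantile normalised signal, which gives every array the same distribution of signals. Signals under 2 were set to 2 before log2 was taken. Where a floor of 1 is named below as an alternative, signals under 1 were set to 1 instead. A miRNA was tested when at least 2 of 3 arrays of a day detected it, and it was called when limma's Benjamini-Hochberg adjusted p was under 0.05 and the difference exceeded 2-fold. Of 307 miRNAs tested, 102 (33.2%) rose and 50 (16.3%) fell, so that 49.5% were called. The calls were uneven in kind. Among the 102 that rose, 58 were not detected on any day 1 array, 18 were detected on 1 or 2 of them and 26 on all 6 arrays. Among the 50 that fell, 39 were detected on all 6 arrays. The 200 miRNAs detected on all 6 arrays therefore held more falls (39, 19.5%) than rises (26, 13%), with a median difference of -0.19 against 0.49 over all tested. The remaining 135 were not called, 124 of them within 2-fold. Of all 307 tested, 253 (82.4%) had no overlap between the arrays of the 2 days. The number of calls depended on the handling of low signals, at 77 (38 higher, 39 lower) with the floor raised to a detection limit shared by all arrays and 25 (8 higher, 17 lower) with a normexp background correction. Without scaling between arrays 21 fell and the rises made up 89.7% of the calls, against 67.1% under quantile normalisation.

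**Figure D1:**
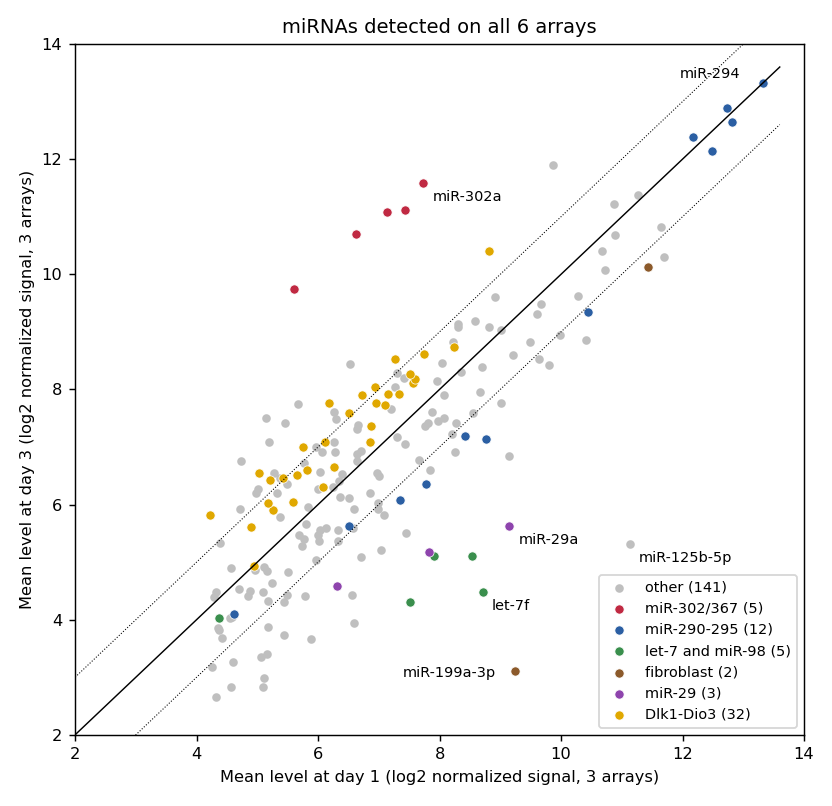
Mean log2 normalised signal at day 3 (vertical axis) against day 1 (horizontal axis) for the 200 miRNAs detected on all 6 arrays of Activin A plus Wnt3a, n = 3 arrays per day, coloured by list, with a solid line at no difference and dotted lines at 2-fold. The 5 strands of the miR-302 cluster lie far above the solid line, while miR-125b-5p, miR-199a-3p, let-7f and miR-29a lie far below it and miR-294 sits on it at the top.

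The miR-302 cluster, miR-302a to miR-302d with miR-367, rose as a whole. All 8 of its strands on the array were called higher, against 33.2% of all miRNAs tested. Its 5 hairpins lie within 580 bases at chr3:127545228-127545807. MiR-302a, the first strand of the cluster by name, had log2 levels of 7.75, 7.69 and 7.75 at day 1 and 11.59 on each day 3 array. The day 3 arrays stood clear of the day 1 arrays, with a rise of 3.85 (SE 0.09), or 14.5-fold (limma, adjusted p = 4.31e-25). MiR-302b moved from 7.12, 7.10 and 7.20 to 11.13, 11.13 and 10.98, a 15.3-fold rise (limma, adjusted p = 4.23e-08). MiR-302c moved from 5.68, 5.61 and 5.50 to 9.74 on all 3 arrays, a 17.6-fold rise (limma, adjusted p = 1.28e-23). MiR-302d read 7.39, 7.41 and 7.50 on the day 1 arrays and 10.98, 11.27 and 11.13 on the day 3 arrays, a 12.9-fold rise (limma, adjusted p = 2.81e-18).

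MiR-367, which has a different seed from the miR-302 strands, rose with them. It read 6.49, 6.41 and 6.95 on the day 1 arrays and 10.64, 10.74 and 10.74 on the day 3 arrays, a 17-fold rise (limma, adjusted p = 2.43e-13). The other strand of the miR-302a hairpin, miR-302a*, was undetected at day 1 and reached 6.51, 6.55 and 6.53 at day 3, so it was at least 5.41-fold higher. MiR-302b* and miR-302c* were likewise detected on 0 and then 3 arrays, but their day 3 level lay under the limit of the day 1 arrays, which gives no fold. Before scaling, the signal summed over the cluster went from 365 to 468 at day 1 to 11420 to 14491 at day 3. Undifferentiated ESCs had 791 to 910, so the cluster stood below the ESC range at day 1 and above it at day 3, and it was at 8335 to 10965 at day 5.

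The miR-290-295 cluster, at chr7:3218626-3220841 (2216 bases), did not follow its epiblast counterpart. Of 14 strands on the array 13 were tested, 0 rose and 5 fell, beside 33.2% and 16.3% of all miRNAs tested. The strands that fell were miR-292-5p by 1.63, miR-294* by 1.42, miR-290-3p by 1.28, miR-291a-5p by 1.24 and miR-290-5p by 1.09 on the log2 scale. MiR-292-5p illustrates them, with levels of 8.66, 8.94 and 8.72 at day 1 and 7.05, 7.15 and 7.24 at day 3, ranges that do not overlap (limma, adjusted p = 6.28e-08).

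The strands of highest signal in this cluster were not called. MiR-294 had the highest signal of any miRNA on each of the 6 arrays and so stood at 13.32 on all of them. MiR-295 differed by 0.17 (95% interval -0.05 to 0.38), miR-292-3p by -0.17 (-0.37 to 0.03), miR-291a-3p by 0.20 (-0.06 to 0.47) and miR-293 by -0.35 (-0.65 to -0.05), and their arrays overlapped between days. Quantile normalisation sets a top rank to the same value on every array, so these strands were also compared under other scalings. MiR-294 read 13154, 13043 and 14722 before scaling at day 1 and 11167, 9385 and 11079 at day 3, every day 3 array below every day 1 array. With each array divided by its 75th percentile, over miRNAs detected on all 39 arrays or over all 611, the difference of miR-294 was -1.10 or -1.44, that of miR-295 -1.17 or -1.51, that of miR-292-3p -1.45 or -1.78 and that of miR-293 -1.35 or -1.68, and each of these 4 was then called lower. Without any scaling they lay between -0.37 and -0.72. MiR-295 thus changed direction with the scaling, and miR-291a-3p likewise, at 0.20, -0.66, -0.99 and 0.07 in the same order.

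**Figure D2:**
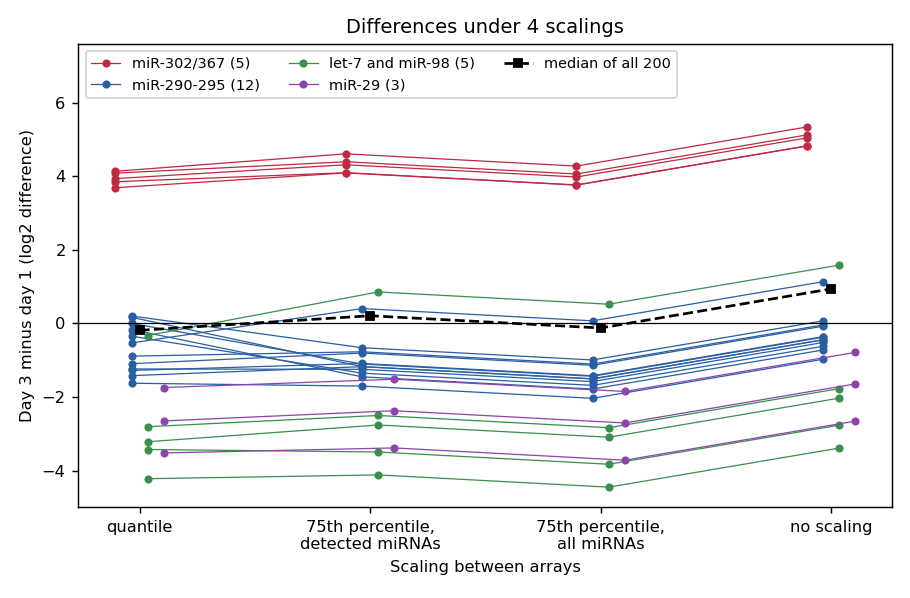
Day 3 minus day 1 difference in log2 signal under quantile normalisation, 2 scalings to the 75th percentile and no scaling, 1 line per strand detected on all 6 arrays for the miR-302 cluster (5), miR-290-295 (12), let-7 with miR-98 (5) and miR-29 (3), with the median of all 200 dashed. The miR-302 cluster stays between 3.69 and 5.34, while the miR-290-295 strands of highest signal move from about 0 under quantile normalisation to between -0.66 and -1.78 under the percentile scalings.

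The median difference of the 200 miRNAs detected on all 6 arrays was -0.19 under quantile normalisation, 0.21 and -0.12 with the percentile scalings and 0.94 with none. Medians of the lists moved with it. The miR-302 cluster strands detected on all arrays kept medians of 3.94, 4.32, 3.98 and 5.05 in that order, with all 5 called higher each time. The miR-290-295 strands had medians of -0.71, -1.14, -1.47 and -0.41, and 5, 8, 10 and 0 of 12 were called lower.

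A shared seed did not always go with a shared direction in these cells. The counts by seed cover only the 139 of 307 tested miRNAs that had a mature sequence. They are therefore not complete, and miR-302a and miR-92b, both called higher, are not in them. Of the 5 strands with the seed AAGUGCU, miR-302b and miR-302d rose and miR-291a-3p, miR-294 and miR-295 did not, with differences from 0.00 to 3.94. Of the 4 with AUUGCAC, miR-367 rose by 4.09 while miR-25, miR-363 and miR-92a were not called, with a lowest difference of -0.82. The 5 strands with AAAGUGC, which belong to the miR-17-92 cluster and its relatives and differ from the miR-302 seed by a shift, held 0 calls and ran from -0.22 to 0.99. In contrast, all 8 strands with the let-7 seed GAGGUAG and all 3 with the miR-29 seed AGCACCA fell, beside 16.3% of all miRNAs tested.

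Members of the let-7 family, which act against pluripotency and lower targets such as Hmga2, fell by 2.81 to 4.22 on the log2 scale where they were measured on both days. Of 16 let-7 and miR-98 strands on the array 10 were tested, and 0 rose and 8 fell, against 16.3% of all miRNAs tested. Let-7f had levels of 8.87, 8.66 and 8.60 at day 1 and 4.28, 4.58 and 4.61 at day 3, 18.7-fold lower (limma, adjusted p = 3.25e-09). Let-7a went from 8.60, 8.52 and 8.48 to 5.23, 4.99 and 5.09, 10.8-fold lower (limma, adjusted p = 2.59e-07). Let-7e, which is transcribed with miR-125a, went from 7.93, 7.93 and 7.87 to 5.20, 5.05 and 5.07, 7.01-fold lower (limma, adjusted p = 2.67e-06).

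For each of these strands the ranges of the 2 days stood more than 2 log2 units apart. Let-7c fell 9.30-fold. Let-7b, let-7d, let-7g and let-7i were detected on every day 1 array and on no day 3 array. On the normalised scale, where the day 3 limit was 1.69 to 5.83, their falls were at least 33.3-fold, 49.0-fold, 31.9-fold and 62.2-fold. These bounds depend on the scaling. Before scaling let-7i read 129, 108 and 127 at day 1, beside a day 3 limit of 3.40 to 4.69. Only let-7b* and let-7f*, the passenger strands, were tested and not called.

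MiR-125b-5p fell further than any let-7 strand that could be measured on both days. It stood at 11.13 on each day 1 array and at 5.39, 5.23 and 5.30 at day 3, a fall of 5.82 (SE 0.09), or 56.6-fold (limma, adjusted p = 2.5e-29). Before scaling its signal was 1268, 1148 and 1312 at day 1 and 53.3, 42.3 and 54.3 at day 3. Its relative miR-125a-5p, with the same seed, had levels of 7.53, 7.44 and 7.32 and of 7.20, 6.93 and 7.05, a difference of -0.37 that was under 2-fold and not called. The opposite arm of that hairpin, miR-125a-3p, was newly detected at day 3, at least 5.80-fold higher. The 9 strands of the list of miR-99, miR-100 and miR-125 thus held 5 tested, 2 higher and 1 lower. The shares over all miRNAs tested were 33.2% and 16.3%.

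**Figure D3:**
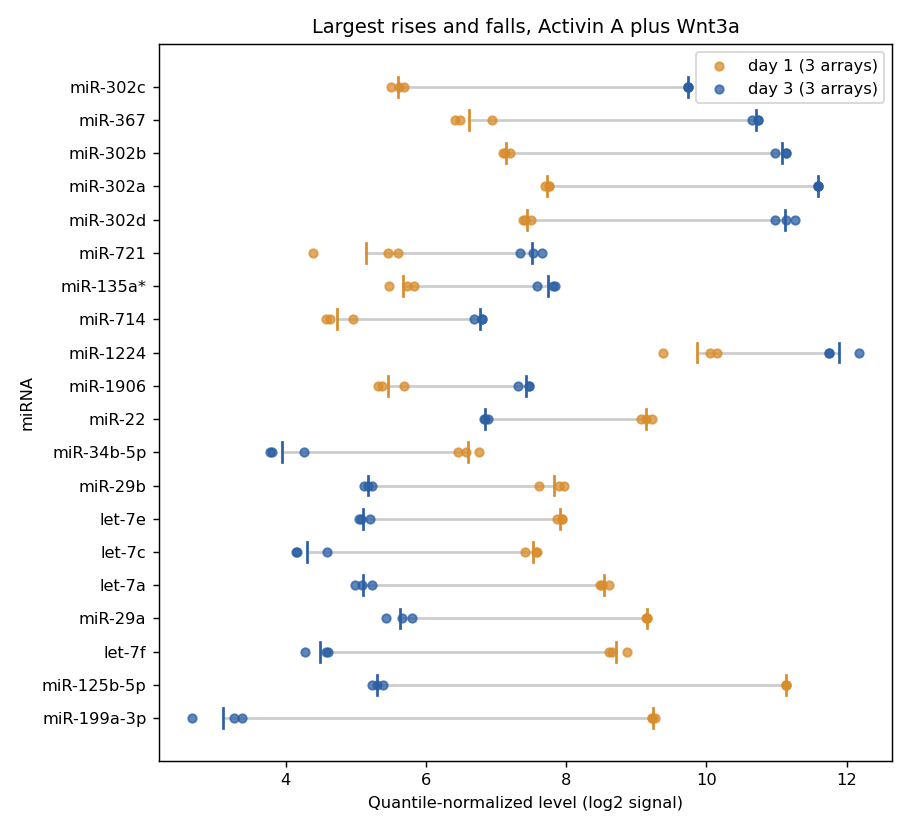
Log2 normalised signal on each of the 3 day 1 and 3 day 3 arrays of Activin A plus Wnt3a for the 10 largest rises and 10 largest falls among called miRNAs detected on all 6 arrays, each point being 1 array and each short line a mean of 3. In none of these 20 miRNAs do the points of the days overlap, which also holds for 253 of all 307 miRNAs tested (82.4%).

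MiRNAs known from fibroblasts and other mesenchymal cells also fell. Of 10 such strands on the array 6 were tested and all 6 fell, beside 16.3% of all miRNAs tested. MiR-199a-3p, which comes from the Dnm3os transcript with miR-214, went from 9.27, 9.22 and 9.22 to 3.27, 2.67 and 3.37, 70.2-fold lower (limma, adjusted p = 2.14e-10), and its day 3 arrays lay far below its day 1 arrays. It has the same mature sequence as miR-199b-3p, so the 2 cannot be separated. MiR-199a-5p, miR-199b*, miR-214 and miR-143 were lost from all 3 day 3 arrays. On the normalised scale they fell at least 52.1-fold, 29.7-fold, 28.5-fold and 13.9-fold. Before scaling miR-199a-5p read 103, 99.0 and 116 and miR-143 18.2, 25.4 and 31.6 at day 1, beside a day 3 limit of 3.40 to 4.69. MiR-21, a widely expressed miRNA that targets Pdcd4, fell 2.47-fold, from 11.43 on each day 1 array to 10.16, 10.16 and 10.04. Its fall was not called with the 75th percentile over miRNAs detected on all arrays or without scaling.

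The cells had been grown on fibroblast feeders, and the fibroblast strands moved with the other falls. Their summed signal before scaling was 2270 to 2780 at day 1 and 1485 to 1754 at day 3, with 6 and then 2 of 10 strands detected. The sum had been 1778 to 1897 in undifferentiated ESCs. Most of the sum on both days was miR-21, at 1664 to 2075 on day 1 and 1477 to 1735 on day 3. The other 4 strands of the list, miR-145, miR-145*, miR-21* and miR-214*, were not detected on any of the 6 arrays. The part of these cells in the falls of let-7, miR-125b-5p and miR-29 was not tested. In bulk RNA, fewer cells of a type and less of a miRNA per cell cannot be told apart.

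MiR-29 and miR-34 followed the same course. The 3 miR-29 strands tested, known to target collagens and DNA methyltransferases, all fell, beside 16.3% of all miRNAs tested. Without scaling 2 of these 3 were called lower. MiR-29a went from 9.13, 9.16 and 9.16 to 5.80, 5.43 and 5.65, 11.5-fold lower (limma, adjusted p = 8.89e-24), miR-29b fell 6.28-fold and miR-29c 3.35-fold. MiR-29a and miR-29b are partly encoded by 1 locus at chr6:31062660-31063093. Of the miR-34 strands, which are induced by p53, all 3 tested fell, beside 16.3% of all miRNAs tested. The falls were 6.27-fold for miR-34b-5p, 4.37-fold for miR-34c and 2.06-fold for miR-34a. With the 75th percentile over miRNAs detected on all arrays and without scaling, 2 of the 3 were called lower. MiR-34a read 531, 534 and 631 before scaling at day 1 and 581, 470 and 596 at day 3. MiR-22 fell 4.90-fold, from 9.22, 9.07 and 9.13 to 6.82, 6.88 and 6.84 (limma, adjusted p = 8.00e-18).

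MiR-181c and miR-181d, which share the seed ACAUUCA, fell by 2.23 and 1.94. Without scaling between arrays neither was called. MiR-181c had levels of 5.86, 5.84 and 5.96 at day 1 and 3.37, 3.81 and 3.81 at day 3 (limma, adjusted p = 0.000724). MiR-181b, with the same seed, was detected at day 3 alone, on 2 arrays, and was not called. The group of miR-297, miR-466, miR-467 and miR-669, largely encoded in an intron of Sfmbt2, has near-identical members, which the probes may not separate. Of its 21 tested strands 8 fell, beside 16.3% of all miRNAs tested, among them miR-466h by 1.75, miR-466a-3p by 1.37 and miR-669f by 1.12. Without scaling between arrays 0 of 19 were called.

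Beside the miR-302 cluster, the largest rises among miRNAs measured on all 6 arrays were those of miR-721, miR-135a*, miR-714, miR-1224 and miR-1906. MiR-721, which carries the miR-130 seed AGUGCAA, went from 4.39, 5.46 and 5.60 to 7.34, 7.66 and 7.53, 5.14-fold higher (limma, adjusted p = 5.67e-10). MiR-135a* rose 4.20-fold, miR-714 4.11-fold, miR-1224 4.08-fold and miR-1906 3.90-fold. MiR-1224 stood at 9.38, 10.16 and 10.04 at day 1 and at 11.75, 12.18 and 11.75 at day 3, again without overlap. Under a normexp background correction with an offset of 50, all of these but miR-1224 were under 2-fold.

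A total of 54 miRNAs went from 0 to 3 detecting arrays. The lowest normalised signal detected was 13.4 to 20.3 on the day 1 arrays and 1.69 to 5.83 on the day 3 arrays, so a miRNA of low level could be seen at day 3 and missed at day 1. The bound on the rise exceeded 1 for 19 of the 54 and 2-fold for 7. The largest bounds were those of miR-877, a mirtron of Abcf1, at least 6.89-fold, and miR-483, from an intron of Igf2, at least 6.25-fold. MiR-877 reached 6.71, 6.97 and 6.95 at day 3 and miR-483 reached 6.49, 6.90 and 6.82. MiR-874 was at least 2.83-fold and miR-369-3p at least 2.81-fold higher. Before scaling, where the day 1 limit was 4.69 to 5.67 and the day 3 limit 3.40 to 4.69, the bound exceeded 1 for 52 and 2-fold for 42. In the other direction 9 miRNAs went from 3 to 0 arrays. These were let-7b, let-7d, let-7g, let-7i, miR-10a, miR-143, miR-199b*, miR-199a-5p and miR-214.

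The imprinted Dlk1-Dio3 region, which holds a large miRNA cluster that is expressed from the maternal chromosome, held many of the rises. Of its 73 strands on the array 52 were tested, 30 rose and 0 fell, beside 33.2% and 16.3% of all miRNAs tested. Part of this rests on detection, since 32 were detected on all 6 arrays, of which 10 rose, beside 13% of all 200 such miRNAs, with a median of 0.80 against -0.19. MiR-494 went from 8.48, 9.13 and 8.82 to 10.38, 10.47 and 10.38, and its 3.04-fold rise was the largest of these (limma, adjusted p = 6.55e-06). MiR-376a rose by 1.60, miR-377 by 1.53 and miR-410 by 1.26 on the log2 scale. MiR-127, the antisense regulator of Rtl1, differed by 0.50 and miR-433 by -0.01, and neither was called. The number called higher among the 32 was 10 under quantile normalisation, 19 and 9 under the percentile scalings and 32 without scaling.

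**Figure D4:**
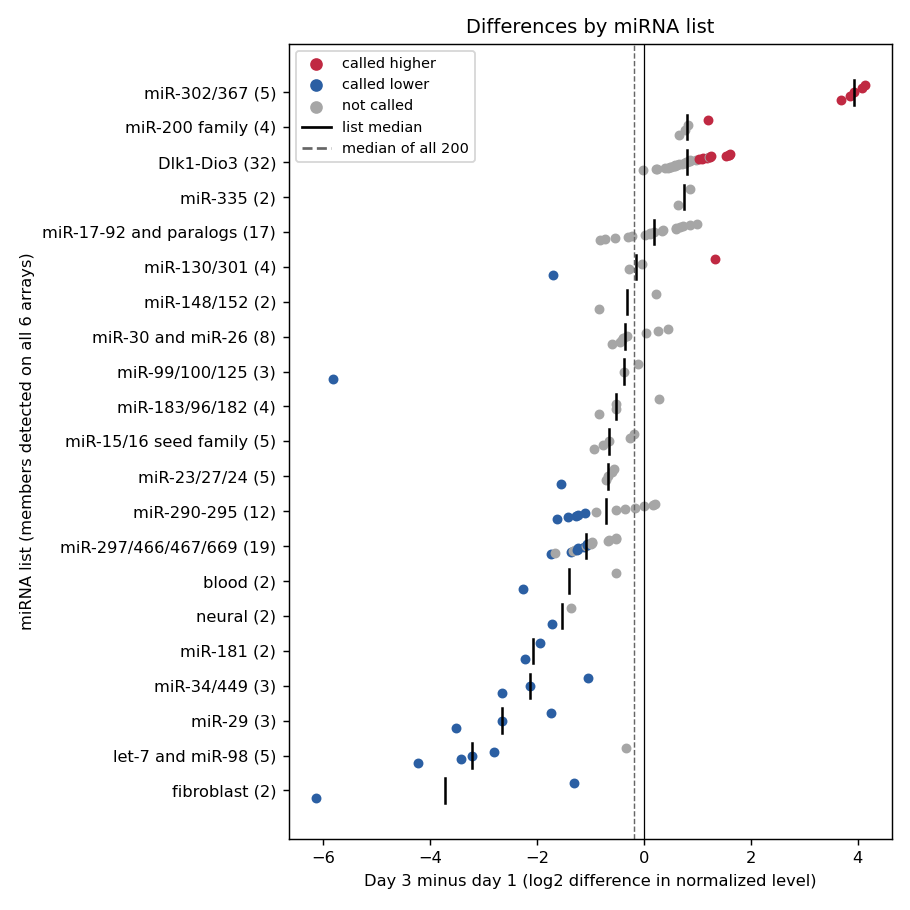
Day 3 minus day 1 difference in log2 normalised signal for strands detected on all 6 arrays, 1 row per list with its number of strands and 1 point per strand, coloured by call, with a bar at the list median and a dashed line at the median of all 200 (-0.19). The miR-302 cluster stands highest with a median of 3.94, and let-7, miR-29 and the fibroblast list stand lowest, with medians of -3.22, -2.65 and -3.72.

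The epithelial miR-200 family, which represses Zeb1 and Zeb2, had 2 rises among 5 strands tested of 9 on the array, beside the 33.2% of all miRNAs tested. MiR-200a rose 2.29-fold, from 6.28, 6.21 and 6.38 to 7.41, 7.44 and 7.61 (limma, adjusted p = 5.89e-07), with no overlap between the days. MiR-141 rose by 2.14 but was detected on 2 of 3 day 1 arrays. MiR-200b at 0.83, miR-429 at 0.77 and miR-200c at 0.66 were under 2-fold.

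Other pluripotency and cell cycle clusters showed few calls. In miR-17-92 and its paralogs 18 of 21 strands were tested, 1 rose (miR-92b, not detected at day 1) and 0 fell. The shares over all miRNAs tested were 33.2% and 16.3%. Of the 17 of these strands detected on all 6 arrays, 0 were called higher under quantile normalisation, 4 and 0 under the percentile scalings and 14 without scaling. MiR-92a had levels of 11.75, 11.59 and 11.59 and then 10.81 on each array, a difference of -0.82 that was not called. In the list of miR-15 and miR-16 relatives 1 of 7 tested rose (miR-15b*), in miR-30 and miR-26 0 of 8 were called and in miR-183, miR-96 and miR-182 0 of 4. The list of miR-130 and miR-301 had 2 rises and 1 fall among 5. MiR-301a rose by 1.34 and miR-301b, detected on 1 day 1 array, by 2.80. MiR-130b* fell by 1.70, but before scaling it read 15.9, 14.3 and 14.7 at day 1 and 16.1, 12.1 and 16.3 at day 3. MiR-152, newly detected, was the 1 call of 3 in the list of miR-148 and miR-152. MiR-23a fell by 1.56, while miR-23b, miR-24, miR-27a and miR-27b, which sit in the same clusters or their paralogs, lay between -0.56 and -0.70 and were not called. Without scaling 0 of these 5 were called. Of 41 passenger (star) strands tested, 15 rose and 4 fell, beside the 33.2% and 16.3% of all miRNAs tested.

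Marker strands of other tissues were detected in part. Of 9 muscle strands 0 were detected on any of the 6 arrays. Of 8 blood strands 3 were detected (miR-150, miR-155 and miR-223), with a summed signal before scaling of 101 to 124 at day 1 and 31.7 to 43.2 at day 3. MiR-150, a lymphocyte miRNA, was on 3 day 1 arrays and 1 day 3 array, so its fall of 5.83 rests partly on the floor. MiR-155 fell by 2.27, which was not called with the 75th percentile over miRNAs detected on all arrays or without scaling. MiR-142, miR-144 and miR-451 were undetected. Of 7 neural strands 4 were detected. MiR-9 was on 1 day 1 array and 3 day 3 arrays and rose by 2.84, and miR-124 fell by 1.72, from 5.48, 5.43 and 5.43 to 3.83, 3.74 and 3.60 (limma, adjusted p = 0.00554). The fall of miR-124 was not called without scaling. MiR-137 and miR-219 were undetected.

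Of 11 strands known from liver, gut and pancreas 2 were detected, and both rose, beside 33.2% of all miRNAs tested. MiR-218 was on 1 day 1 array (4.42) and on all day 3 arrays (6.63, 6.51 and 6.49). MiR-375, the leading miRNA of pancreatic islets, was on no day 1 array and stood at 4.61, 4.11 and 4.45 at day 3, at least 1.23-fold higher. The liver miRNA miR-122 and the gut miRNAs miR-192, miR-194 and miR-215 were undetected on all 6 arrays. From the Hox clusters, which pattern the body axis, miR-10a fell at least 14.6-fold on the normalised scale, from 5.61, 5.39 and 5.82 to no detection. Before scaling it read 23.1, 20.9 and 34.7 at day 1, beside a day 3 limit of 3.40 to 4.69. MiR-335-5p and miR-335-3p, from an intron of the imprinted gene Mest, differed by 0.87 and 0.64 and were not called.

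The study over-expressed 6 miRNAs in later experiments, and from day 1 to day 3 they took different courses. MiR-181c and let-7e fell, as given above. MiR-338-5p went from 0 to 3 arrays, at 3.67, 3.43 and 3.06, under the day 1 limit, and passed the test with no fold to be given. MiR-222 was on 1 day 1 array (4.70) and on all day 3 arrays (4.31, 4.63 and 4.67). MiR-196a was on 2 day 1 arrays (4.20 and 4.56) and 2 day 3 arrays, and miR-196b was on 1 and then 3. MiR-222 was called higher (limma, adjusted p = 0.0206) and miR-196a lower (limma, adjusted p = 0.0423), but the arrays of the 2 days overlapped in both, and miR-196b was not called.

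The change in Activin A plus Wnt3a was set against that in Control, Activin A and Wnt3a. A slide term could not be estimated for these differences either, so slide and treatment cannot be told apart in them. Among the arrays of days 1 and 3, only those of Activin A plus Wnt3a at day 3 lay on slide 5 and in scan session 2. Most calls were shared with each of the other treatments taken singly. Of the 102 that rose, 75 of the 91 tested in Control, 82 of 96 in Activin A and 80 of 95 in Wnt3a rose as well. Of the 50 that fell, 40 of 47, 47 of 49 and 40 of 49 fell. These shares stand beside a high background, since in Control 40.7% of all miRNAs tested rose and 20.9% fell (61.6% called), in Activin A 33.1% and 18.7% (51.8%) and in Wnt3a 35% and 17.4% (52.4%). Let-7f, miR-29a, miR-22, miR-721, miR-877 and miR-494 were called in all 4 treatments in the same direction, and their differences between treatments were not called. In Activin A alone the changes were -4.49 for let-7f, -3.56 for let-7a, -6.85 for miR-199a-3p, -3.14 for miR-29a, -2.64 for miR-34b-5p, -2.27 for miR-22, 2.39 for miR-721 and 1.70 for miR-494, each within 1 log2 unit of the change in Activin A plus Wnt3a. That of miR-199a-3p rests partly on the floor, since 2 of the 3 day 3 arrays of Activin A detected it.

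The change itself differed from that in Control for 58 of 320 miRNAs tested (18.1%), from that in Wnt3a for 35 of 325 (10.8%) and from that in Activin A for 6 of 312 (1.92%). The change was higher than in Control for 32 (10%) and lower for 26 (8.12%), higher than in Wnt3a for 21 (6.46%) and lower for 14 (4.31%), and higher than in Activin A for 2 (0.641%) and lower for 4 (1.28%). The last split turned with the percentile scalings, to 8 higher and 1 lower and to 4 higher and 1 lower, with 3 of the 6 called each time. The 3 tests use the same 6 Activin A plus Wnt3a arrays and are therefore not independent. The 6 against Activin A, named after their values were seen, were miR-302b* and miR-302c*, with larger rises by 1.37 and 1.11, and miR-9*, miR-31*, miR-489 and miR-150, with changes lower by 3.02, 1.28, 1.10 and 1.00. Each had at least 1 array of the 12 with no detection, so these sizes rest partly on the floor. Of the miRNAs detected on all 12 arrays 0 were called by limma, with 17 at an unadjusted p under 0.05.

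Strands of the miR-302 cluster rose more in Activin A plus Wnt3a than in Wnt3a alone, and several more than in Control. The change of miR-302a was 3.85 in Activin A plus Wnt3a, 3.90 in Activin A, 2.68 in Control and 2.02 in Wnt3a. The difference was 1.17 against Control and 1.83 against Wnt3a (limma, adjusted p = 2.05e-08 and 2.31e-12). Against Control 5 of the 8 strands were called, namely miR-302a, miR-367 with 1.78 and the star strands miR-302a*, miR-302b* and miR-302c*, which were undetected at day 1. The difference of miR-367 was not called without scaling (1.66, limma, adjusted p = 0.0511). MiR-302b, miR-302c and miR-302d, with differences of 0.89, 0.79 and 0.63, were not called against Control. Against Wnt3a all 8 were called, among them miR-302b with 2.35, miR-367 with 2.30 and miR-302c with 1.98. Over all miRNAs tested 18.1% were called against Control and 10.8% against Wnt3a. The first Control day 3 array shared its slide with the day 1 arrays of Activin A plus Wnt3a, and its miR-302a level of 10.74 lay between those of the other 2 Control day 3 arrays (10.64 and 10.98), which were on another slide. All 3 were scanned in session 1 and the day 3 arrays of Activin A plus Wnt3a in session 2. An effect of slide or session was not tested.

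MiR-125b-5p and the miR-200 family also changed differently from Control and Wnt3a. MiR-125b-5p fell by 5.82 and in Activin A by 6.07, but by 3.96 in Control and 3.95 in Wnt3a, a difference of -1.86 and -1.87 (limma, adjusted p = 3.28e-12 and 2.31e-12). Its day 3 arrays in Control lay at 6.74 to 6.88 and in Wnt3a at 6.95 to 7.07, above all 3 of Activin A plus Wnt3a. MiR-200b was 0.83 higher at day 3 and 0.63 higher in Activin A, but -0.89 in Control and -0.42 in Wnt3a, with differences of 1.72 and 1.25 (limma, adjusted p = 1.91e-11 and 1.64e-08). In the miR-200 family 4 of 5 differences were called against Control, all 5 against Wnt3a and 0 against Activin A. The shares over all miRNAs tested were 18.1%, 10.8% and 1.92%.

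**Figure D5:**
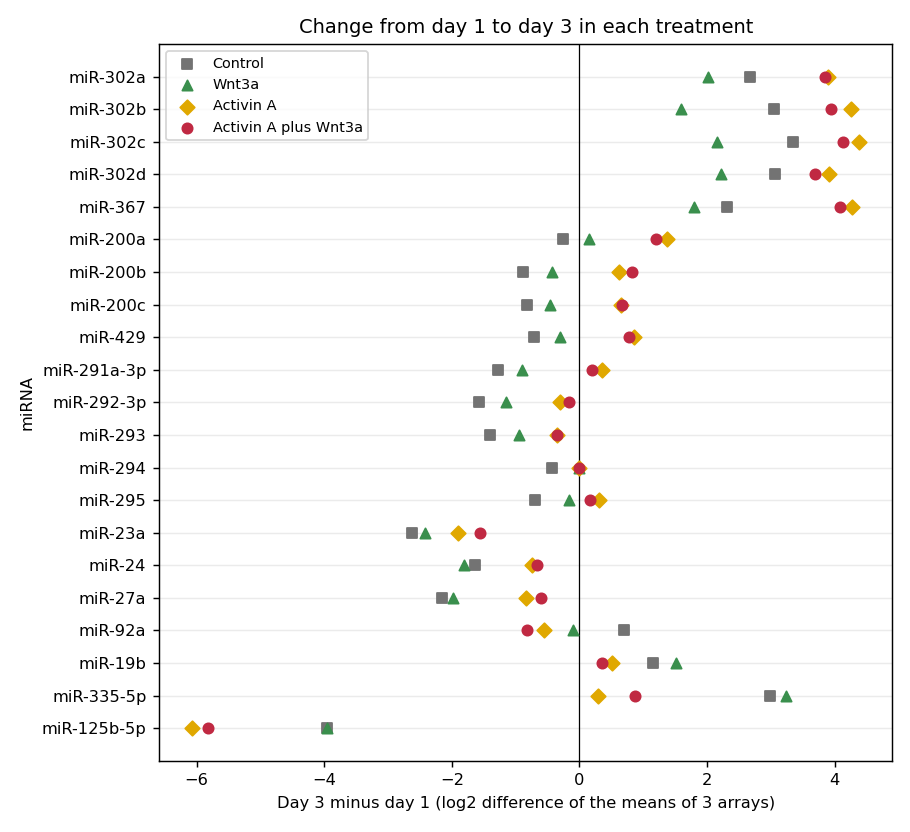
Change from day 1 to day 3 in log2 normalised signal in each of the 4 treatments, each symbol the difference between the means of 3 arrays per day, for 21 miRNAs of the clusters and differences described here. Activin A and Activin A plus Wnt3a lie close together for miR-302a (3.90 and 3.85) and miR-125b-5p (-6.07 and -5.82), apart from Control (2.68 and -3.96) and Wnt3a (2.02 and -3.95).

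In the miR-290-295 cluster the change was higher than in Control for 5 of 13 strands, beside 10% of all miRNAs tested. The change of miR-292-3p was -0.17, against -1.57 in Control, -1.15 in Wnt3a and -0.30 in Activin A, a difference from Control of 1.41 (limma, adjusted p = 3.12e-09). Before scaling the cluster summed to 45366 to 52404 at day 1 and 32450 to 39111 at day 3, and in Control to 31713 to 36955 and 15577 to 16087. The changes of miR-27a and miR-23a were also higher than in Control, by 1.55 and 1.06 (limma, adjusted p = 0.0297 and 0.000226).

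MiR-335-5p and miR-124 had lower changes than in Control. MiR-335-5p rose by 2.99 in Control and 3.24 in Wnt3a but differed by 0.87 here and by 0.30 in Activin A. Here it read 5.71, 5.37 and 5.39 on the day 1 arrays and 6.35, 6.30 and 6.41 on the day 3 arrays, and the difference in change was -2.12 against Control and -2.38 against Wnt3a (limma, adjusted p = 0.0298 and 0.022). With a floor of 1 neither difference was called (limma, adjusted p = 0.0817 and 0.0713). That against Control was also not called with no detection filter (limma, adjusted p = 0.0655). MiR-124 differed by 0.58 in Control and 0.10 in Wnt3a against its fall of 1.72, a difference of -2.29 from Control (limma, adjusted p = 0.0238), and its fall in Activin A was 1.39. This difference was -0.93 at the shared detection limit and -0.46 with normexp, and it was not called there, nor with a floor of 1 (adjusted p = 0.0707) or no detection filter (adjusted p = 0.0514). The differences of miR-10a, miR-375, let-7c and let-7e from Control were also called, but their sizes rest on arrays without detection and are not given. At day 3 miR-10a was detected on 0 arrays here and on all 3 of Control, Wnt3a and Activin A. MiR-375 was detected at day 3 on 3 arrays here, 1 of Control, 3 of Wnt3a and 3 of Activin A. Let-7c and let-7e were each detected at day 3 on 3 arrays here and on 2 of Control.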

How the data were processed

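Total RNA was labelled with Cy3 and hybridised to 1-colour Agilent mouse miRNA arrays, 1 array per sample. The scanner files hold intensity values as deposited by the authors, made per the file headers with Agilent Feature Extraction 10.7.3.1 (the labels name 9.5.3.1). This software subtracted the background, summed the probes of each of 650 miRNAs (611 of them mouse) and gave 0.1 where a miRNA was not detected. The deposited value table holds log2 values that the authors quantile normalised, and was used only to match its columns to arrays, over 142 miRNAs.

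The total signals of the mouse miRNAs were quantile normalised over 39 arrays, values under 2 were set to 2, and log2 was taken. The 13 groups were fitted together with limma 3.58.1 (statmod 1.5.0) in R 4.3.3, as the study normalised all arrays together. Its own test, a one-way ANOVA, was an alternative. The Benjamini-Hochberg adjustment ran over all miRNAs tested. The members and lists were chosen with earlier results of these data known. Named miRNAs were the 10 largest rises and 10 largest falls among calls detected on all 6 arrays, the 6 and 4 largest bounds among those detected on 1 day, the 4 of highest signal, up to 3 per direction for each difference between treatments, up to 4 per list, and the 6 that the study over-expressed. A miRNA undetected on all arrays of a day was given a bound. The bound set the bright day's mean against the lowest signal detected per array on the other day. Bounds are on the normalised scale unless given as before scaling. Array medians of local background were 35 to 36 and low signals limit the precision. Deviations from the mean of a day's 3 arrays correlated at 0.27, 0.11 and 0.30 between same-numbered replicates of days 1 and 3 over 200 miRNAs. Differently numbered pairs lay between -0.31 and 0.09. A fit with the replicate number as a block was an alternative, beside other scalings, floors, filters, sample sets and slide. The test was checked on simulated data with 307 miRNAs, where it recovered 22 of 29 changed by 1.5 and 28 of 31 changed by 2 log2 units and called 2 unchanged ones.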

Additional observations from a re-analysis of the deposited data

Results flagged for a closer look

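The change from day 1 to day 3 in Activin A plus Wnt3a differed from that in Control for 58 miRNAs, by limma's test of the difference. Among miRNAs detected on all 12 arrays the largest in each direction were miR-124 (-2.29), miR-335-5p (-2.12) and miR-125b-5p (-1.86), with lower changes, and miR-367 (1.78), miR-200b (1.72) and miR-27a (1.55), with higher changes. Against Wnt3a the change differed for 35, among them miR-335-5p (-2.38), miR-125b-5p (-1.87) and miR-19b (-1.16, under 2-fold and not called with the percentile scalings or without scaling) and, with higher changes, miR-302b (2.35), miR-367 (2.30) and miR-302c (1.98). Against Activin A it differed for 6. In all of these differences slide and treatment cannot be told apart.

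The arrays also carry features for viral miRNAs, which belong to no comparison here. Of these, 6 were detected on at least 2 of the day 3 arrays. The feature named mcmv-miR-M23-1-3p was detected on 0 day 1 arrays and 3 day 3 arrays, with a signal before scaling of up to 242, mcmv-miR-M23-1-5p on 1 and 3 (up to 101) and mcmv-miR-m88-1 on 0 and 3 (up to 68.2). The features mcmv-miR-M87-1 and mcmv-miR-m88-1* were each detected on 0 and 2 arrays, with signals of up to 8.67 and 20.4. The feature mghv-miR-M1-2 was detected on all arrays of both days, at up to 53.8 and 63.8. Whether these signals come from mouse RNAs was not tested.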

How the results depend on the processing

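The calls (102 higher, 50 lower) became 25 with normexp background correction, 77 with the floor at the shared detection limit and 65 when detection on every array was required. The percentile scalings gave 169 and 165. The 58 differences from Control became 9, 30 and 26 under the first 3 of these, and 34 (13 higher, 21 lower) with no scaling. With the 75th percentile over miRNAs detected on all arrays 71.6% of them were higher, against 55.2%. The 35 differences from Wnt3a became 8, 20 and 15. The 6 differences from Activin A became 0 (39 at an unadjusted p under 0.05), 1 and 0 (17 at an unadjusted p under 0.05), 3 with no scaling and with quantile normalisation of log2 signals, 2 with a floor of 1, 9 (8 higher, 1 lower) and 5 (4 higher, 1 lower) with the percentile scalings, and 10 with the 24 arrays of days 1 and 3 or with adjusted p alone. Leaving out 1 array at a time gave 139 to 155 calls, and 46 to 68, 3 to 11 and 29 to 45 differences from Control, Activin A and Wnt3a. The 3 came without Activin A day 3 replicate 2 and the 11 without Activin A day 1 replicate 3. The 20 largest rises and falls were all called in every such fit, and the difference of 70.7 in miRNAs detected ranged from 62.8 to 78.8. It was 0 at a shared detection limit, since quantile normalisation puts the same number above any limit. The 54 newly detected miRNAs became 23 at that limit and 82 when 2 of 3 against at most 1 of 3 arrays counted, and the 9 lost ones became 23 and 10. Bounds over 2-fold rose from 7 to 42 without scaling, an alternative chosen after seeing the data. MiR-295 changed sign with the percentile scalings (-1.17 and -1.51), and miR-222 with normexp (-0.021). Named members that lost their call with normexp and otherwise kept it include let-7b, let-7c, miR-135a*, miR-1906, miR-714, miR-721, miR-483, miR-877, miR-125a-3p, miR-302a* and miR-34b-5p, while miR-874, miR-369-3p, miR-338-5p and miR-181c also lost it at the shared detection limit. The call of miR-196a was lost under most alternatives. Those of miR-335-5p and miR-27a against Control were lost without Control day 1 replicate 1, Activin A plus Wnt3a day 1 replicate 1 or its day 3 replicate 2, and that of miR-335-5p against Wnt3a without Wnt3a day 1 replicate 1 or Activin A plus Wnt3a day 1 replicate 1. Both calls of miR-335-5p were also lost with a floor of 1, and that against Control with no filter. That of miR-27a was also lost with no scaling, quantile normalisation of log2 signals, normexp (0.79) and no filter. That of miR-367 against Control was lost with no scaling (1.66). Those of miR-125b-5p against Control and Wnt3a were lost with normexp (-0.81 and -0.67). That of miR-19b against Wnt3a was lost with the percentile scalings (-0.49 and -0.44) and with none (-0.52), and that of miR-124 against Control with normexp (-0.46), the shared detection limit (-0.93), a floor of 1 and no filter. MiR-222 lost its call without day 1 replicate 1 or 2, and miR-196b gained one without day 1 replicate 3 (2.37). The causes were not tested.

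With the replicate number as a block, the number of calls was the same over 39 arrays and 148 over the 6 arrays. The block changed no count of calls by over 1.5 times, and it changed no call of a named miRNA beyond those that the same arrays lost without it (miR-196a and miR-222, in the fit of the compared arrays alone). Slide as a random block gave 155 calls, and slide as a fixed term could not be fitted because it is not estimable here. Low signal was also a limit of measurement, since the day 1 arrays detected nothing below a normalised signal of 13.4.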
